A study of Mus musculus with 15 samples.

Results

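The non-clustered protocadherins measured here were 10 genes of the cadherin superfamily, Pcdh1, Pcdh7, Pcdh8, Pcdh9, Pcdh10, Pcdh11x, Pcdh17, Pcdh18, Pcdh19 and Pcdh20. They were found by symbol among the 27179 Entrez gene identifiers of a table of raw counts, and all 10 were among the 16816 genes that passed the filter on low counts. The counts came from RNA sequencing of dissected medial prefrontal cortex (mPFC) of C57BL/6J mice, a cortical region that takes part in fear extinction, in which a learned fear response wanes when the cue no longer predicts harm. The 15 libraries formed 4 groups: ABX mice after extinction (post-extinction ABX, n = 4), mice without ABX after extinction (post-extinction non-ABX, n = 4), and the same 2 treatments before extinction (pre-extinction ABX, n = 4, and pre-extinction non-ABX, n = 3, replicates 1, 3 and 4). ABX is the usual abbreviation for a mixture of antibiotics; the sources used here do not give its drugs, dose or duration, nor the age and sex of the mice or whether each library is 1 animal. The extraction text speaks of sorted cells although each sample is described as dissected tissue. The 10 genes were chosen with these same comparisons in view, so their levels and fold changes are a description, and no p-value is given for them.

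Protocadherins are single-pass membrane proteins whose extracellular cadherin repeats bind the same protein on a neighbouring cell and whose cytoplasmic tails differ between subfamilies. The clustered protocadherins lie in tandem arrays of alternative first exons and label individual neurons, whereas the non-clustered genes are scattered through the genome and are switched on in particular brain regions, cortical layers and circuits. The delta-1 genes (Pcdh1, Pcdh7, Pcdh9 and Pcdh11x) have more cadherin repeats and a tail that binds protein phosphatase 1. The delta-2 genes (Pcdh8, Pcdh10, Pcdh17, Pcdh18 and Pcdh19) have fewer repeats, and several of their tails recruit the WAVE complex, which drives actin branching at growing axons and at synapses. Pcdh20 stands outside both subfamilies, and in mouse somatosensory cortex it is known for placing neurons in layer 4.

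Libraries held 44254906 to 57929503 counts, and the 10 genes had from 382 counts (Pcdh18) to 12104 counts (Pcdh10) in a library. Poisson counting error alone gives a coefficient of variation of 4.73% for Pcdh18, 3.94% for Pcdh11x and at most 3.54% for each of the others, against spreads over libraries of 5.88% to 23.9%. Levels are in CPM, which corrects each count for the TMM-scaled depth of its library, and differences are log2 fold changes of the group means with their standard error (SE) from an edgeR quasi-likelihood fit to all 15 libraries. A gene is called where its Benjamini-Hochberg adjusted p over the 16816 genes tested was under 0.05. The libraries differed in how their counts depended on the GC content of the transcript. The fitted level of transcripts of 60% GC minus that of transcripts of 40% GC, on the log2 scale and relative to the mean of all libraries, averaged 0.01 ± 0.27 in post-extinction ABX, 0.34 ± 0.20 in post-extinction non-ABX, -0.41 ± 0.40 in pre-extinction ABX and 0.09 ± 0.50 in pre-extinction non-ABX libraries (SD, n = 4, 4, 4 and 3). It ran from -0.82 in pre-extinction ABX replicate 1 to 0.66 in pre-extinction non-ABX replicate 3. Fold changes with this trend removed library by library are given beside those as deposited for the comparisons the text turns on. The curve removed was fitted over the tested genes together, so it need not fit each gene. After removal, r of the members' deviations from group means with the trend still ran from -0.66 (Pcdh8) to 0.73 (Pcdh10). Defining markers of cortical excitatory neurons, interneurons, astrocytes, oligodendrocytes and their precursors, microglia and vessel cells were all detected, and of the 15 marker lists only the blood cell list held a gene at 0 counts, Hba-a1.

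Promoter sequences were available for 8 of the 10 genes in 9 windows, from RefSeq on GRCm38.p6, and the 250 bases before each annotated start were searched on both strands for TGACG, the core of the cAMP response element through which neuronal activity drives transcription, for the E-box CACGTG and for the TATA box TATAAA. These 3 motifs do not overlap one another in any window. The windows of the 3 genes with a match are shown, 5′ to 3′ on the strand of the gene, with matches in capitals: Pcdh9 (chr14:93890670-93890919, minus strand), Pcdh10 (chr3:45378148-45378397, plus strand) and Pcdh8 (chr14:79771313-79771562, minus strand), of which Pcdh10 and Pcdh8 are the members best known as targets of neuronal activity.
Pcdh9: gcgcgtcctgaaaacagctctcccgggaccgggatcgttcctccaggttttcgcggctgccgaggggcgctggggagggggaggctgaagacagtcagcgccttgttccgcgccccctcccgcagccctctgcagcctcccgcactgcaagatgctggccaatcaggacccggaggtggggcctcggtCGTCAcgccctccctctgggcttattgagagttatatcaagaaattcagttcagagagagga
Pcdh10: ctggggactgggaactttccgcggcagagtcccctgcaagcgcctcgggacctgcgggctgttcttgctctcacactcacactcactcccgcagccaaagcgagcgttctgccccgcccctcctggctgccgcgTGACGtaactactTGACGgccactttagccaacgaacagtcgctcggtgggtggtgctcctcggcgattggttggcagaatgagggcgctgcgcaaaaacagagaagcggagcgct
Pcdh8: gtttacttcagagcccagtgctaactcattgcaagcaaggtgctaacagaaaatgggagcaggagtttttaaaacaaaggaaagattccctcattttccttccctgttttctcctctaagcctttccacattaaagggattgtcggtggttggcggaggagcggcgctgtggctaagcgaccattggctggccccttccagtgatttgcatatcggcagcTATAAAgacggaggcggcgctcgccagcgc
Pcdh10 held TGACG at 2 places, starting 116 and 103 bases before the start of transcription. Pcdh9 held the reverse complement CGTCA at 1 place. That place was 62 bases before the start of transcription at the 3′ end of the window shown. It was 52 bases before another annotated start of Pcdh9. Pcdh8 held TATAAA 30 bases before its start. The windows of Pcdh7, Pcdh17, Pcdh18, Pcdh19 and Pcdh20 held none of the 3 motifs, and CACGTG was in no window of the 8 genes. All windows of Pcdh7 and Pcdh9 lay inside the gene spans given below, so the outermost starts of these genes were not searched. Among 32851 mouse promoter windows of the same length, TGACG was present in 17.8%, TATAAA in 12.4% and CACGTG in 6.02%. A match is only a run of letters and says nothing of whether a factor binds there.

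The 10 genes lie on 5 chromosomes of mouse build GRCm38 (mm10). Chromosome 14 holds Pcdh8 (79766772 to 79771312), Pcdh17 (84443563 to 84537565), Pcdh20 (88464743 to 88471396) and Pcdh9 (93013700 to 93892834). Pcdh10 (45378398 to 45434579) and Pcdh18 (49743291 to 49757383) lie on chromosome 3, and Pcdh11x (120290238 to 120910622) and Pcdh19 (133582860 to 133689044) on chromosome X. Pcdh7 is on chromosome 5 (57716145 to 58133236) and Pcdh1 on chromosome 18 (38185914 to 38212048). All 10 share the gene structure typical of the family, in which a single large exon encodes most of the extracellular part. Their largest coding exon was 2147 bases (Pcdh19) to 3174 bases (Pcdh7) long and held 62.2% (Pcdh11x) to 95.4% (Pcdh20) of the coding bases, while the median over 15068 tested genes with a coding sequence was 301 bases and 26.2%. A coding exon at least as long as the shortest of these 10 was present in 3.44% of those genes. The longest transcripts differed widely in base composition, from 36.3% GC in Pcdh11x to 59.3% in Pcdh8 and 60.7% in Pcdh1, with the other 7 between 42.0% (Pcdh20) and 47.8% (Pcdh19). The median of tested genes was 49.9%. Genes that overlap a member on either strand and have counts of their own held at most 1.78% of that member's counts (9630013A20Rik, within Pcdh17), and the library kit does not keep strand, so reads of overlapping genes could not be told apart.

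Levels per transcript length placed the 10 genes in a high and a low range. Divided by the length of the longest transcript, the mean over the 15 libraries was 26.0 ± 6.21 CPM per kb for Pcdh1, 24.8 ± 2.11 for Pcdh10, 22.8 ± 2.81 for Pcdh9 and 20.4 ± 2.45 for Pcdh7 (SD, n = 15). Below these came Pcdh17 at 6.09 ± 0.882, Pcdh19 at 4.25 ± 0.493, Pcdh8 at 3.51 ± 0.514 and Pcdh20 at 3.46 ± 0.683 CPM per kb. Pcdh18, at 1.72 ± 0.101, and Pcdh11x, at 1.41 ± 0.298 CPM per kb, were lowest. Only 2 steps of this order separated neighbours without overlap of their library values, Pcdh7 above Pcdh17 and Pcdh20 above Pcdh18. Pcdh17 exceeded Pcdh19 in 15 of 15 libraries although their ranges overlapped, while Pcdh1 exceeded Pcdh10 in only 10 of 15 and Pcdh8 exceeded Pcdh20 in 9 of 15. Over summed exon length the order of the upper 4 became Pcdh9 at 21.9, Pcdh7 at 16.9, Pcdh1 at 16.0 and Pcdh10 at 12.8 CPM per kb, and the order of the lower 6 stayed as given.

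**Figure D1:**
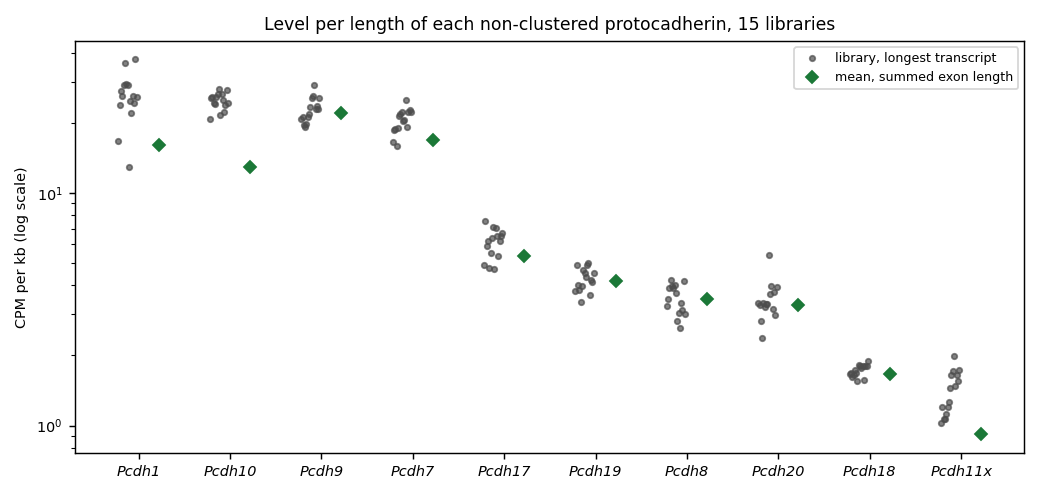
CPM per kb of each non-clustered protocadherin on a log axis. Grey points are the 15 libraries over the length of the longest transcript and green diamonds the mean over summed exon length; Pcdh1, Pcdh10, Pcdh9 and Pcdh7 lie above the other 6 by either length.

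The comparison of post-extinction with pre-extinction libraries asks how the mPFC differed between the 2 stages. Pcdh11x, an X-linked delta-1 gene of neurons, had the largest difference of the 10. Its level was 9.32, 10.9, 9.73 and 9.75 CPM in post-extinction ABX and 10.2, 11.0, 11.5 and 13.1 CPM in post-extinction non-ABX libraries, against 14.98, 15.6, 18.2 and 13.5 CPM in pre-extinction ABX and 14.9, 14.1 and 15.7 CPM in pre-extinction non-ABX libraries. All 8 post-extinction libraries lay below all 7 pre-extinction libraries, the nearest being post-extinction non-ABX replicate 4 and pre-extinction ABX replicate 4. With both treatments averaged the log2 fold change was -0.51 (SE 0.07), and with the GC-content trend removed it was -0.36 (SE 0.07). It was -0.65 (SE 0.10) between the ABX groups and -0.38 (SE 0.10) between the non-ABX groups, or -0.44 (SE 0.09) and -0.28 (SE 0.10) with the trend removed. Pcdh11x was called lower in the averaged comparison under every alternative that gave this comparison, and leaving out each library in turn gave -0.55 to -0.47. Fitting the compared groups alone gave no average.

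Pcdh9, the delta-1 gene with the longest genomic span of the 10, was also lower after extinction. It had 135, 138, 127 and 124 CPM in post-extinction ABX and 128, 138, 142 and 152 CPM in post-extinction non-ABX libraries, against 166, 170, 190 and 150 CPM in pre-extinction ABX and 154, 150 and 166 CPM in pre-extinction non-ABX libraries. The ABX groups did not overlap, and of the 8 post-extinction libraries only post-extinction non-ABX replicate 4 reached the pre-extinction range. The averaged log2 fold change was -0.26 (SE 0.05), or -0.15 (SE 0.04) with the GC-content trend removed, with -0.36 (SE 0.07) between the ABX groups and -0.16 (SE 0.08) between the non-ABX groups. Within treatments, the values with the trend removed were -0.23 (SE 0.05) for ABX and -0.07 (SE 0.06) for non-ABX. The call of Pcdh9 in the averaged comparison was lost when any 1 of 9 libraries was left out. Among pre-extinction libraries these were replicates 2 and 3 of the ABX group and 1 and 4 of the non-ABX group, and among post-extinction libraries replicates 3 and 4 of the ABX group and 1, 2 and 3 of the non-ABX group.

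Pcdh11x and Pcdh9 were the 2 members called in the averaged comparison, where 0.963% of all genes tested were called and 0.743% were called lower. Pcdh11x was also the 1 member called between the ABX groups, where 0.0951% of genes were called and 0.0178% were called lower. That call was lost with those groups fitted alone, and without replicate 3 or 4 of the post-extinction or replicate 1, 2 or 3 of the pre-extinction ABX libraries. Between the non-ABX groups 0 members were called, as were 0.0% of genes, with 830 genes at an unadjusted p under 0.05 in edgeR and 19 called by DESeq2. The stage ranges of Pcdh11x did not overlap in the averaged comparison, where 0.309% of genes had ranges apart, nor between the non-ABX groups, where 5.91% did. Between the ABX groups the ranges of Pcdh7, Pcdh9 and Pcdh11x did not overlap, against 5.47% of genes. The members were chosen on these contrasts, so nothing is read from these counts. Fewer cells of a type and less RNA per cell cannot be told apart in bulk tissue.

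**Figure D2:**
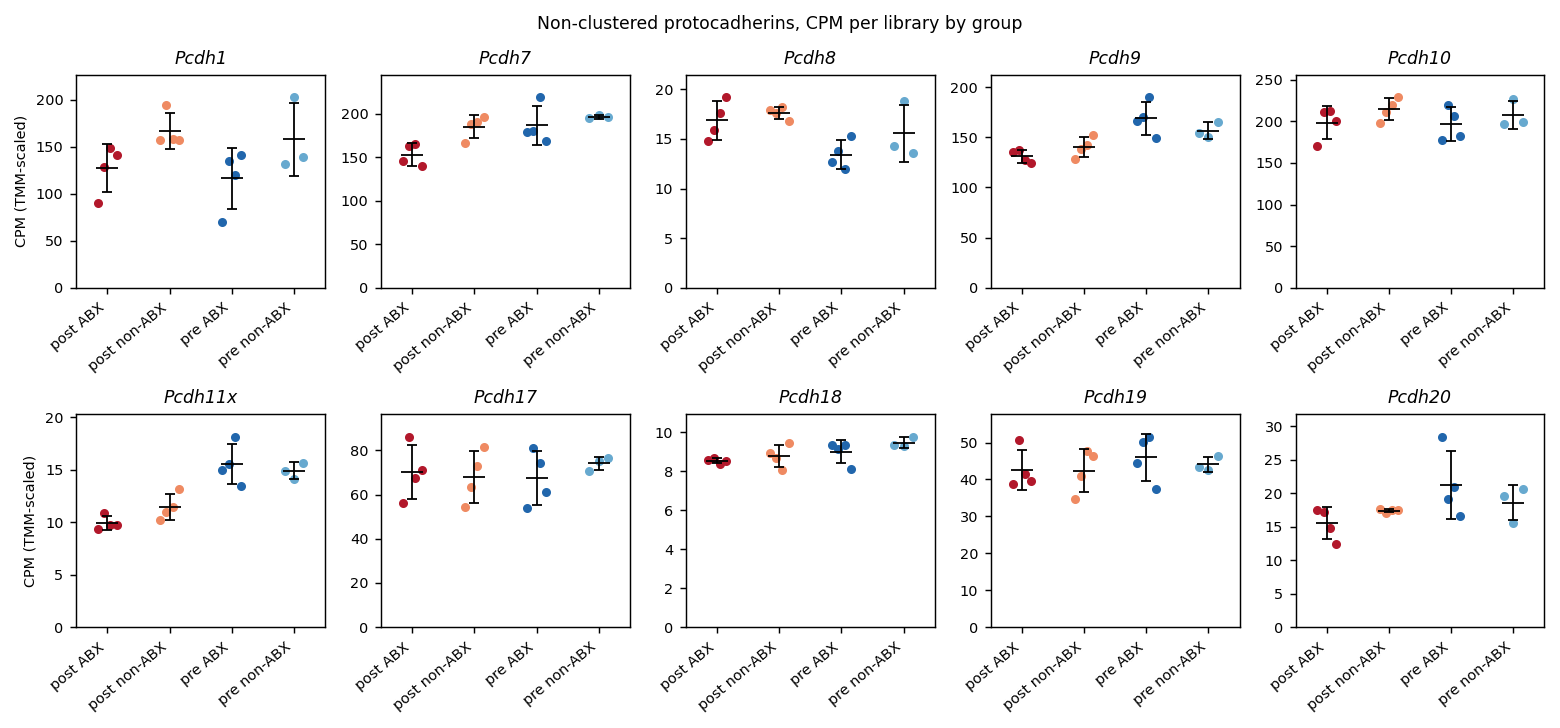
CPM of each gene in each library (points) with the group mean and SD (bars), by group; each vertical axis starts at 0. The post-extinction points of Pcdh11x, 9.32 to 13.1 CPM, lie below its pre-extinction points, 13.5 to 18.2 CPM.

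The other delta-1 genes differed less between stages. Pcdh7, whose tail binds the SET protein and protein phosphatase 1, had 145, 163, 165 and 140 CPM in post-extinction ABX libraries, against 179, 180, 219 and 168 CPM in pre-extinction ABX libraries. These did not overlap, whereas post-extinction non-ABX libraries (166, 188, 191 and 196 CPM) and pre-extinction non-ABX libraries (195, 199 and 196 CPM) overlapped. Its log2 fold change was -0.28 (SE 0.08) between the ABX groups, -0.09 (SE 0.09) between the non-ABX groups and -0.19 (SE 0.06) averaged, and it was not called. With the GC-content trend removed, the ABX groups gave -0.21 (SE 0.07), the non-ABX groups -0.03 (SE 0.08) and the average -0.12 (SE 0.05). Pcdh1, an adhesion molecule of neurons and of epithelia, had an averaged difference of 0.10 (SE 0.14), or -0.08 (SE 0.09) with the trend removed.

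Among the delta-2 genes, Pcdh8 had the largest averaged stage difference as deposited, and Pcdh10 with the GC-content trend removed. Pcdh8, also called arcadlin, is induced by synaptic activity in rat hippocampal neurons, where it promotes the uptake of N-cadherin from the synapse. Pcdh8 had 14.8, 15.9, 17.6 and 19.2 CPM in post-extinction ABX libraries, against 12.7, 13.8, 11.9 and 15.3 CPM in pre-extinction ABX libraries. It had 17.9, 17.6, 18.2 and 16.8 CPM in post-extinction non-ABX libraries, against 14.3, 18.9 and 13.6 CPM in pre-extinction non-ABX libraries. Both pairs of groups overlapped, the second through pre-extinction non-ABX replicate 3 alone, and that library had the highest GC trend of the 15. The averaged log2 fold change of Pcdh8 was 0.25 (SE 0.08), or 0.08 (SE 0.05) with the GC-content trend removed. Removal did not free Pcdh8 of the trend, as r of its deviations from group means with it went from 0.90 to -0.66. Pcdh8 was not called, but was called when pre-extinction non-ABX replicate 3 was left out (0.34). That omission called 2262 genes for averaged stage, against 162 with all libraries.

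The remaining delta-2 genes had overlapping ranges at the 2 stages and none was called. Pcdh10, which guides axons and, in mouse neurons, carries the scaffold PSD-95 to the proteasome at synapses being removed, had a lowest, median and highest level of 170, 211 and 229 CPM in the 8 post-extinction libraries, against 178, 200 and 227 CPM in the 7 pre-extinction libraries. Pcdh17, which assembles presynaptic terminals in corticobasal ganglia circuits of the mouse, had 54.5, 69.4 and 86.2 CPM after extinction, against 54.1, 74.5 and 81.04 CPM before it. Pcdh18, whose tail binds the adaptor Dab1, had 8.04, 8.63 and 9.45 CPM in post-extinction libraries, against 8.12, 9.34 and 9.77 CPM in pre-extinction libraries. These ranges nearly coincided. Pcdh19, which forms a complex with N-cadherin and whose human gene is mutated in an X-linked epilepsy, had 34.8, 41.1 and 50.6 CPM after extinction, against 37.5, 44.6 and 51.6 CPM before it. The averaged log2 fold changes of these 4 genes ran from -0.09 (Pcdh18, SE 0.05) to 0.03 (Pcdh10, SE 0.06), and from -0.05 (Pcdh19, SE 0.07) to 0.13 (Pcdh10, SE 0.08) with the GC-content trend removed.

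Pcdh20 showed no separation of stages in single libraries. It had 17.6, 17.2, 14.8 and 12.4 CPM in post-extinction ABX libraries, against 28.4, 19.2, 20.9 and 16.6 CPM in pre-extinction ABX libraries. The groups overlapped, and pre-extinction ABX replicate 1, the library with the lowest GC trend of the 15, was the highest. Post-extinction non-ABX libraries spanned 17.0 to 17.6 CPM, within the pre-extinction non-ABX range of 15.6 to 20.6 CPM. The averaged log2 fold change was -0.28 (SE 0.11), or -0.15 (SE 0.07) with the GC-content trend removed. Pcdh20 was not called, but was called without pre-extinction non-ABX replicate 3 (-0.33). That omission called 2262 genes and 4 members for averaged stage, against 162 genes and 2 members with all libraries. Summed markers of layer 4 and 5a excitatory neurons, 5 of 5 detected, ran from 63.9 to 83.9 CPM (median 76.6) after and from 73.4 to 86.6 CPM (median 76.2) before extinction, and those of deep layer neurons, 9 of 9 detected, from 181 to 259 CPM (median 229) after and from 209 to 301 CPM (median 254) before extinction. The wider excitatory neuron list ran from 6544 to 7735 CPM (median 7255) after and from 5994 to 7638 CPM (median 6513) before extinction, and the astrocyte list from 4829 to 5485 CPM (median 5078) after and from 4854 to 7179 CPM (median 5502) before it. The stage ranges of all 15 marker lists overlapped. Their part in the stage differences of the 10 genes was not tested.

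**Figure D3:**
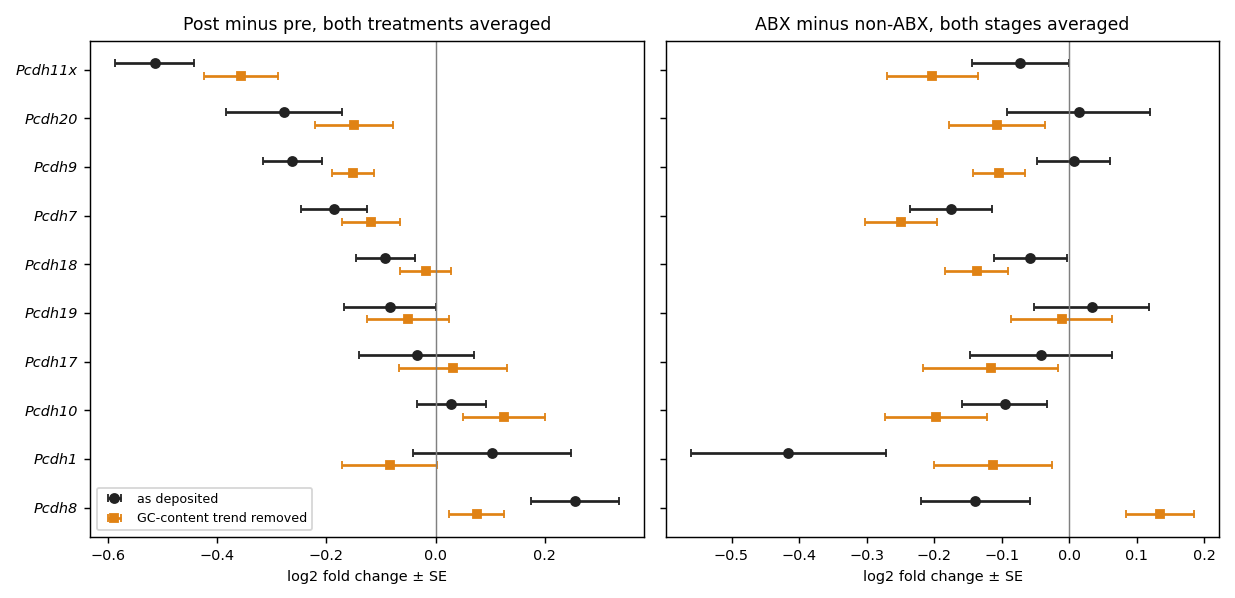
Log2 fold change with its SE for post minus pre extinction (left) and ABX minus non-ABX (right), each averaged over the other factor, from the counts as deposited (black) and with each library's GC-content trend removed (orange). Pcdh11x is farthest from 0 on the left by either estimate, and on the right Pcdh1 is at -0.42 in black and -0.11 in orange.

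Setting ABX beside non-ABX libraries asks how the treatment related to expression at each stage. On the values as deposited Pcdh1 had the largest averaged difference, and with the GC-content trend removed Pcdh7 did. Pcdh1 had 90.5, 128, 148 and 141 CPM in post-extinction ABX libraries, against 157, 195, 158 and 157 CPM in post-extinction non-ABX libraries. It had 70.0, 135, 120 and 141 CPM in pre-extinction ABX libraries, against 132, 202 and 139 CPM in pre-extinction non-ABX libraries. The post-extinction groups did not overlap, the pre-extinction groups did, and the lowest library of each ABX group was its replicate 1. The log2 fold change of Pcdh1 was -0.39 (SE 0.20) after extinction, -0.44 (SE 0.21) before it and -0.42 (SE 0.14) averaged. With the GC-content trend removed it was -0.14 (SE 0.12), -0.08 (SE 0.13) and -0.11 (SE 0.09). Pcdh1 has the highest GC content of the 10 genes, and it was not called in edgeR, though its averaged difference was called by DESeq2 (-0.42) and without pre-extinction ABX replicate 4 (-0.47). Those 2 settings called 1977 and 3057 genes for averaged ABX, against 105 of 16816 in edgeR with all libraries. Summed markers of endothelial cells, another cell type known to express Pcdh1, ran from 129 to 182 CPM in ABX and from 177 to 210 CPM in non-ABX libraries, with 6 of 6 genes detected, and those of pericytes and smooth muscle from 60.7 to 86.0 CPM in ABX and from 79.7 to 98.8 CPM in non-ABX libraries, also with 6 of 6. Lists of other cell types differed as well. Excitatory neuron markers had a median of 6673 CPM in ABX and 7244 CPM in non-ABX libraries, and astrocyte markers 5387 and 4905 CPM. The ABX and non-ABX ranges of all these lists overlapped. The part of these cell types in the difference of Pcdh1 was not tested.

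Pcdh7 was the other member whose post-extinction groups did not overlap, with 140 to 165 CPM in ABX and 166 to 196 CPM in non-ABX libraries. Its log2 fold change was -0.27 (SE 0.08) after extinction, -0.08 (SE 0.09) before it and -0.17 (SE 0.06) averaged. Its GC content lies below the median of tested genes, and removing the GC-content trend gave -0.34 (SE 0.07), -0.16 (SE 0.08) and -0.25 (SE 0.05), the last of which was called. That fit, which tested only the 91.2% of genes with a GC value, called 644 genes for averaged ABX, against 105 as deposited. Pcdh8 had an averaged difference of -0.14 (SE 0.08), which became 0.13 (SE 0.05) with the trend removed. Its deviations from the group means correlated with the libraries' GC-content trend at 0.90 as deposited and -0.66 after removal (n = 15 libraries). Neither difference of Pcdh8 can thus be taken as free of that trend. Averaged differences of the other 7 genes ran from -0.10 (Pcdh10, SE 0.06) to 0.03 (Pcdh19, SE 0.08), and from -0.20 (Pcdh10, SE 0.08, and Pcdh11x, SE 0.07) to -0.01 (Pcdh19, SE 0.07) with the trend removed.

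No member was called for ABX after extinction, before it or averaged, where 0.0178%, 0.00595% and 0.624% of genes were called in edgeR. These counts stand beside 2234, 2686 and 5149 genes at an unadjusted p under 0.05 in edgeR. DESeq2 called 0, 0 and 1 members, where it called 182, 15 and 1977 of all genes. The ranges of 2 members, Pcdh1 and Pcdh7, did not overlap after extinction, where 11.1% of genes had ranges apart, and those of 0 members before extinction and over all ABX and non-ABX libraries, where 6.76% and 0.511% of genes did. The median over the 10 genes was -0.10 after extinction, -0.07 before it and -0.06 averaged, against 0.01 over all genes tested in each case. For stage the median of the 10 was -0.09 between the ABX groups, between the non-ABX groups and averaged, against 0.01, 0.00 and 0.00 over all genes.

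The interaction, the ABX difference after extinction minus that before it, was not called for any member, with 0.0% of genes called in edgeR, 346 genes at an unadjusted p under 0.05 and 4 genes called by DESeq2. Pcdh20 had -0.36 (SE 0.21), Pcdh11x -0.27 (SE 0.14), Pcdh9 -0.20 (SE 0.11) and Pcdh7 -0.20 (SE 0.12). Pcdh17 had the highest value, 0.18 (SE 0.21). With the GC-content trend removed these were -0.31 (SE 0.14) for Pcdh20, -0.16 (SE 0.14) for Pcdh11x, -0.16 (SE 0.08) for Pcdh9, -0.18 (SE 0.11) for Pcdh7 and 0.20 (SE 0.20) for Pcdh17. So the wider stage differences of Pcdh11x, Pcdh9 and Pcdh7 in the ABX groups were not shown to differ from those in the non-ABX groups. The ABX and stage comparisons share libraries, since each group enters 1 comparison of each kind, and their values are set side by side without a test across them.

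**Figure D4:**
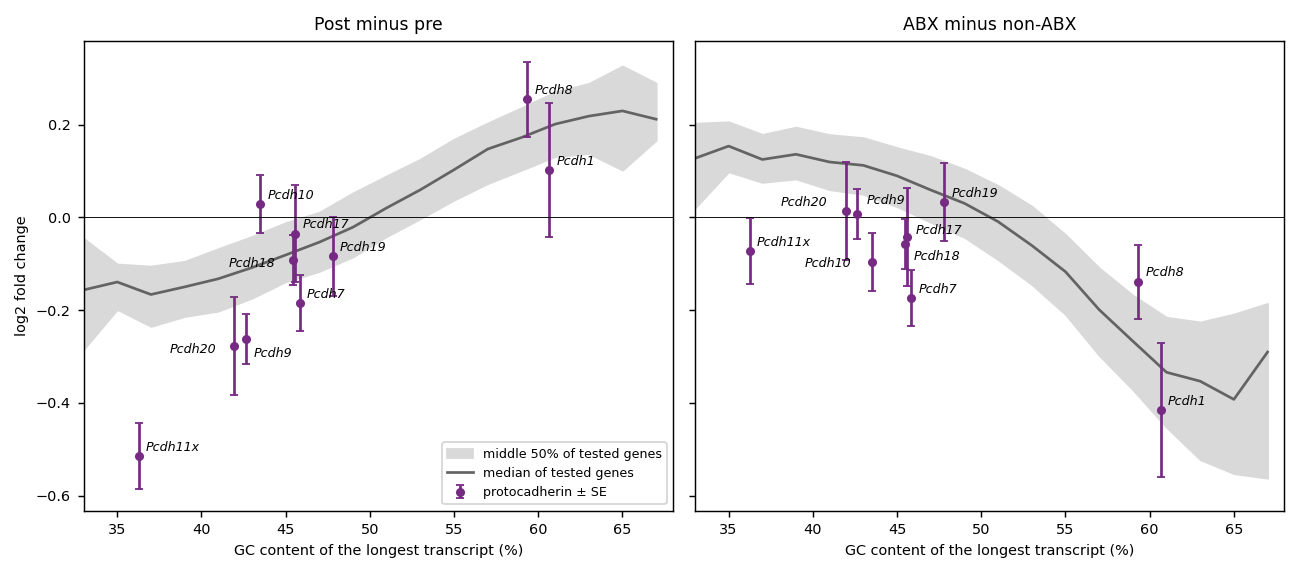
Log2 fold change (vertical axis) against GC content of the longest transcript (horizontal axis, %) for post minus pre extinction and ABX minus non-ABX. The line and band are the median and middle part of all tested genes and purple points are the 10 genes with their SE; Pcdh11x, at 36.3% GC, lies below the band for stage, and Pcdh1, at 60.7% GC, lies within it for ABX.

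Across libraries the 10 genes varied to different degrees. The coefficient of variation over the 15 libraries was 5.88% for Pcdh18 and 8.52% for Pcdh10, 11.6% to 14.6% for Pcdh19, Pcdh7, Pcdh9, Pcdh17 and Pcdh8, and 19.7%, 21.1% and 23.9% for Pcdh20, Pcdh11x and Pcdh1, against a median of 13.1% over all genes tested. The highest value of Pcdh7, Pcdh9, Pcdh11x and Pcdh19 was in the same library, pre-extinction ABX replicate 3, which also had the lowest value of Pcdh8.

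Deviations from the group means, on the log2 CPM scale, showed which genes varied together within groups. Of the 45 pairs of members 32 had a positive Pearson r over the 15 libraries, and 29 with the GC-content trend removed. These correlations share libraries and their depth and base composition, and are given as a description. On the values as deposited, the pair with the highest r was Pcdh9 and Pcdh11x, at 0.91 (Spearman rho 0.79), or 0.87 (rho 0.90) with the trend removed. Another 5 pairs had an r of over 0.8 in size: Pcdh11x with Pcdh19 (0.86), Pcdh10 with Pcdh17 (0.84), Pcdh9 with Pcdh19 (0.82), Pcdh17 with Pcdh19 (0.81) and Pcdh1 with Pcdh20 (-0.87). Removing the GC-content trend gave 0.45, 0.75, 0.54, 0.76 and -0.50 for these. Over all 15 libraries, Pcdh9 with Pcdh11x was the 1 pair of over 0.8 both ways. Omitting the 2 libraries farthest from the median deviation of the first-named gene gave that pair 0.83 as deposited and 0.78 with the trend removed. The other 5 pairs then had 0.91, 0.75, 0.76, 0.83 and -0.76 as deposited, and 0.35, 0.51, 0.40, 0.81 and 0.17 with the trend removed. Another 4 pairs passed 0.8 with the trend removed only: Pcdh10 with Pcdh11x (0.91, the highest, against 0.51 as deposited), Pcdh1 with Pcdh17 (0.84, against 0.44), Pcdh1 with Pcdh11x (0.81, against -0.07) and Pcdh11x with Pcdh17 (0.81, against 0.74). With 2 libraries omitted in the same way, those 4 pairs had 0.83, 0.64, 0.57 and 0.62 with the trend removed. The sign of Pcdh8 with Pcdh20 turned, with -0.79 as deposited and 0.44 with the trend removed. After removal, deviations still correlated with the libraries' GC-content trend, at 0.73 for Pcdh10, 0.57 for Pcdh11x, -0.66 for Pcdh8 and -0.59 for Pcdh20. For Pcdh1 and Pcdh17 r was 0.20 each. The values with the trend removed are thus not cleared of base composition.

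**Figure D5:**
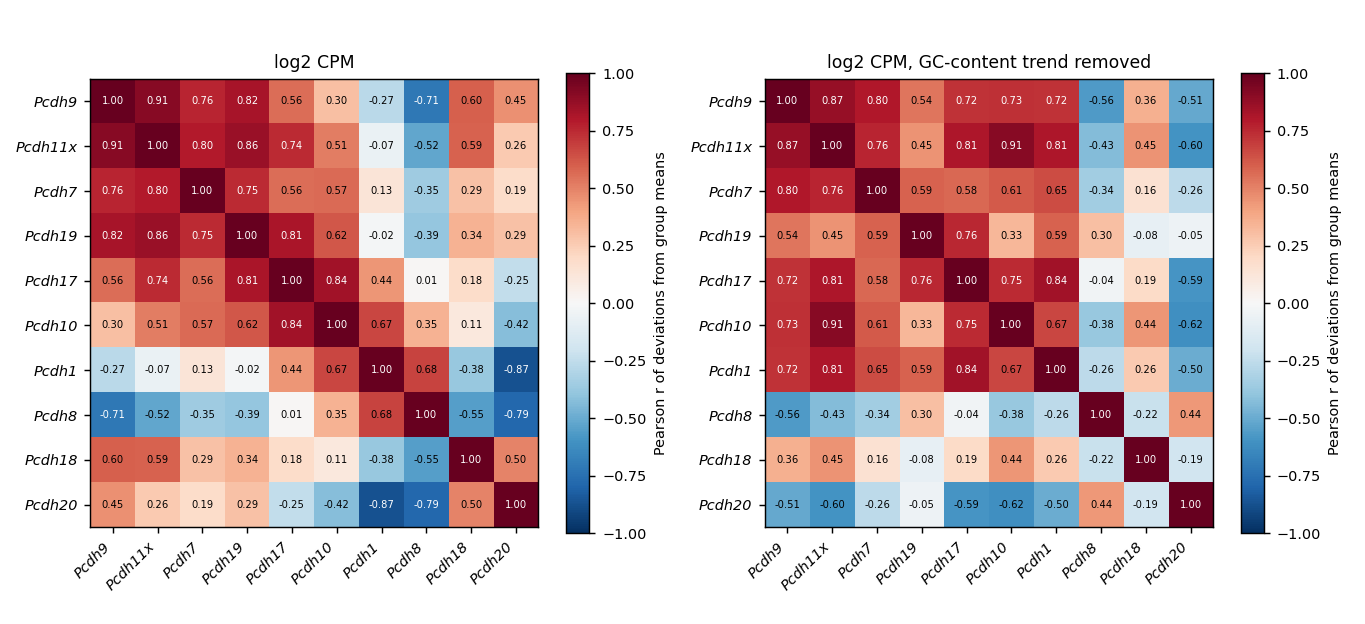
Pearson r between members of their deviations from the group means over 15 libraries, on log2 CPM (left) and with each library's GC-content trend removed (right); red is positive and blue negative. Pcdh9 and Pcdh11x stay at 0.91 and 0.87, while Pcdh1 and Pcdh20 are at -0.87 on the left and -0.50 on the right.

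Over all libraries, group differences included, Pcdh9 and Pcdh11x were each other's nearest gene among 11070 searched (Pearson r of log2 CPM 0.96, n = 15 libraries), followed by Plcb4, a phospholipase of G-protein signalling, for Pcdh9 (0.96) and Usp6nl, a GTPase-activating protein, for Pcdh11x (0.95). For the other delta-1 genes the nearest were Mfn2, of mitochondrial fusion (0.99), and Rab11fip4 (0.98) for Pcdh1, and Lgi2 (0.96) and the methyltransferase gene Setd7 (0.95) for Pcdh7. The delta-2 genes had Mllt6 (0.97) and the transcription kinase Cdk9 (0.97) for Pcdh8, Fry (0.92) and Klf7 (0.90) for Pcdh10, Rap2a (0.94) and Glt1d1 (0.93) for Pcdh17, Lemd3 (0.76) and Patl1 (0.76) for Pcdh18, and the kinase Gsk3b (0.92) and phosphatase Ppm1e (0.92) for Pcdh19. Slitrk2, of synapse formation (0.95), and the bicarbonate transporter Slc4a4 (0.93) were nearest to Pcdh20. The genes of most opposite pattern were Ahcyl2 for Pcdh1 (-0.97), Zfas1 for Pcdh7 (-0.92), Gtpbp4 for Pcdh8 (-0.97), Sdc4 for Pcdh9 (-0.96), Ctss for Pcdh10 (-0.92), Tef for Pcdh11x (-0.93), Plpp3 for Pcdh17 (-0.92), Neat1 for Pcdh18 (-0.82), Cebpa for Pcdh19 (-0.88) and Camkk1 for Pcdh20 (-0.93). Of these 20 nearest genes 10 were among the 10 nearest by Spearman rho and 9 by deviations from group means. The deviations of several members followed the GC-content trend of the libraries, with r of 0.90 for Pcdh8, 0.81 for Pcdh1, -0.86 for Pcdh20, -0.69 for Pcdh9 and -0.58 for Pcdh11x (n = 15 libraries). After its removal these were -0.66, 0.20, -0.59, 0.40 and 0.57. With that trend removed, r with the 20 nearest genes ran from -0.24 (Pcdh8 with Cdk9) to 0.96 (Pcdh7 with Setd7), with a median of 0.85, and r with the 10 genes of most opposite pattern from -0.93 (Pcdh7 with Zfas1) to -0.10 (Pcdh18 with Neat1). Pcdh9 with Pcdh11x then had 0.95.

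Related genes were counted in 7 lists. Like the members, these lists were chosen with earlier results of these data known, so their counts and adjusted p are a description. In the averaged stage comparison, with 0.963% of genes called, the immediate early genes, which neurons switch on after activity, had 5 of 24 members called, all lower after extinction. Egr2, a zinc finger transcription factor, fell to 7.91 ± 2.64 CPM after extinction, against 14.8 ± 3.06 CPM before it (SD, n = 8 and 7; log2 fold change -0.88, SE 0.18, edgeR adjusted p = 0.0322). The nuclear receptors Nr4a3 (-0.62, edgeR adjusted p = 0.0379) and Nr4a2 (-0.46, adjusted p = 0.0226), Tiparp (-0.48, adjusted p = 0.0482) and the AP-1 gene Fosl2 (-0.37, adjusted p = 0.0216) fell as well. The list median was -0.26, with 20 of 24 negative. Of 19 classical and type II cadherins 1 was called, Cdh4 (R-cadherin), which rose to 35.8 ± 4.63 CPM after extinction, against 28.5 ± 1.94 CPM before it (SD, n = 8 and 7; 0.32, SE 0.07, edgeR adjusted p = 0.0379); its value without the GC-content trend was 0.22 (edgeR adjusted p = 0.102). Of 9 catenins 1 was called, Ctnnd1 (p120 catenin, which holds cadherins at the membrane), which fell to 125 ± 6.48 CPM after extinction, against 143 ± 7.48 CPM before it (SD, n = 8 and 7; -0.20, SE 0.04, edgeR adjusted p = 0.0405). Without the GC-content trend the calls of Ctnnd1 (-0.16, edgeR adjusted p = 0.0301) and of the 5 immediate early genes (-0.91 for Egr2 to -0.34 for Tiparp) were kept. Each of these 7 calls was lost when any 1 of 5 libraries was left out. These were, after extinction, replicate 3 of each group and, before extinction, replicate 3 of the ABX and replicates 1 and 4 of the non-ABX group, and of the 7 only the call of Fosl2 was lost in no other omission.

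In the same comparison 0 genes were called among 12 of the WAVE complex (median 0.00), 16 cytoplasmic partners of protocadherins (median -0.04), 17 other non-clustered protocadherins and large cadherins (median 0.06) and 56 clustered protocadherins (median -0.11, 44 negative). Reads of clustered protocadherins fall partly on shared or near-identical exons, so their counts are uncertain gene by gene. The smallest unadjusted p in these 4 lists belonged to Nckap1 (-0.14, edgeR adjusted p = 0.254), Fmr1, the fragile X gene (-0.21, adjusted p = 0.175), the photoreceptor cadherin gene Cdhr1 (0.31, adjusted p = 0.0947) and Pcdhb4 (-0.37, adjusted p = 0.0668). In the other 6 comparisons 0 genes of the 7 lists were called. Within them the clustered protocadherins had a median of -0.17 for ABX after extinction, with 50 of 56 negative, and -0.15 for stage between the ABX groups, with 47 of 56 negative, against 0.01 over all genes in both. Their smallest p in those 2 comparisons belonged to Pcdhac1 (4.87 ± 0.826 CPM in post-extinction ABX and 6.86 ± 0.435 CPM in post-extinction non-ABX libraries, SD, n = 4 each; -0.49, edgeR adjusted p = 0.165, and called without the GC-content trend, at -0.55 and 0.0274) and Pcdhb19 (7.29 ± 0.371 CPM in post-extinction ABX and 9.45 ± 1.68 CPM in pre-extinction ABX libraries, SD, n = 4 each; -0.37, edgeR adjusted p = 0.155, and 0.296 without the trend). The smallest p of the averaged ABX comparison over the cadherin lists belonged to Cdh5, the cadherin of endothelial junctions (11.9 ± 1.79 CPM in ABX and 15.6 ± 1.10 CPM in non-ABX libraries, SD, n = 8 and 7; -0.39, edgeR adjusted p = 0.0539, and called without the GC-content trend, at -0.35 and 0.0212).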

How the data were processed

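RNA of dissected mouse mPFC was sequenced in 15 libraries made with the SMARTer Ultra Low kit (V4), an unstranded method. The authors deposited raw counts, 1 row per Entrez gene; CASAVA 1.8.2, STAR 2.3.0 and build mm10 were used per the submitters' processing notes, while the sources used here name no counting program or annotation. Of 27179 identifiers 4671 had 0 counts and 25275, with 99.7% of counts, were paired with a symbol through RefSeq.

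Groups follow the labels. In R 4.3.3, edgeR 4.0.16 kept 16816 genes (filterByExpr, minimum count 10, minimum total 15), scaled libraries by TMM (factors 0.969 to 1.03) and fitted the means of the 4 groups by quasi-likelihood, with no covariate, to all 15 libraries, with a biological coefficient of variation of 0.112. In all 7 contrasts were tested, two-sided; a call is a Benjamini-Hochberg adjusted p under 0.05, and an SE is the fold change over the square root of F. Averaged contrasts weight both levels of the other factor equally. The p-values measure only the spread between these libraries, which may be technical. CPM values are TMM-scaled, and log2 CPM uses a prior count of 2. GC content and lengths are of GENCODE M21 transcripts on GRCm38. The GC trend of each library is a spline (5 degrees of freedom) fitted to the 91.2% of tested genes with a value. The fit with the trend removed tested those genes only and adjusted p over them. The steps were tested on simulated data.

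The members, gene lists and contrasts were chosen with earlier results of these data known. In each list the text names called genes (up to 5) and otherwise a gene of smallest p; for each member it names the 2 genes of highest and the 1 of lowest correlation, among genes of at least 5 CPM. Alternatives were RLE scaling, DESeq2 1.42.0, no filter, a mean of at least 1 CPM, the replicate number as a block, the compared groups alone, GC-content trend removed, another gene length and each library left out; the pair correlations with the trend removed were added after seeing the data. The protein sequences of the members were not used here.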

Additional observations from a re-analysis of the deposited data

Results flagged for a closer look

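Of 30 sets of 4 libraries, 1 for each of the 10 genes in each group of 4, a single set held a library far from the others by Dixon's criterion at the 95% level. Pcdh1 had 194.7 CPM in post-extinction non-ABX replicate 2, while the other 3 libraries of that group had 157 to 158 CPM. That library also had the highest GC trend of its group, 0.58, against 0.095 to 0.40 in the others. Chance alone flags about 1 in 20 such sets.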

How the results depend on the processing

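Of 70 fold changes of the 10 genes, 7 contrasts each, set against 1510 values under other settings, 0 changed the direction of a called value, 16 lost a call and 8 gained one; 39 values with no call moved by more than their SE, 31 of them with the GC-content trend removed. RLE scaling and the filter at a mean of 1 CPM moved no count of calls by over 1.5 times. The gene counts of the text depended strongly on the tool, the GC trend and single libraries, and the cause was not tested.

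DESeq2 called 182 genes for ABX after extinction, 15 before it and 1977 averaged, 282 for stage between the ABX groups, 19 between the non-ABX groups and 704 averaged, and 4 for the interaction, against 3, 1, 105, 16, 0, 162 and 0 in edgeR. Among members DESeq2 called 2 for stage in ABX and 1 for averaged ABX. With the GC-content trend removed edgeR called 59 genes for ABX after extinction and 644 averaged, 77 for stage in ABX, 2 in non-ABX and 342 averaged, and 1 member for averaged ABX (Pcdh7). With the compared groups alone it called 32 genes for ABX after extinction, and for stage in ABX 5 genes and 0 members; this setting gives no value for the interaction and the averages. Without a filter it called 2 genes for ABX before extinction and 2 for stage in non-ABX.

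Over the 7 lists together, DESeq2 called 5 genes for ABX after extinction, 7 for stage in ABX and 24 for averaged ABX, the fit with the GC-content trend removed 1, 2 and 11, and the fit with no filter 1 each for stage in ABX and averaged ABX. For averaged stage DESeq2 called 2 other non-clustered protocadherins, 4 cadherins and 3 clustered protocadherins; with the GC-content trend removed 1 cytoplasmic partner, 8 immediate early genes and 1 clustered protocadherin were called, and with no filter 0 catenins.

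Replicate numbers did not pair the libraries: deviations from the group means of same-numbered libraries correlated at -0.49 to 0.37 over 21 pairs, of which 8 were over 0.1. With the replicate number as a block, edgeR called 666 genes and 1 member (Pcdh1, -0.47) for averaged ABX, 96 genes and 1 member (Pcdh11x, not Pcdh9) for averaged stage, 13 list genes for averaged ABX, and 3 immediate early genes (Fosl2, Nr4a2 and Nr4a3, not Egr2 or Tiparp) and 0 catenins (not Ctnnd1) for averaged stage.

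With each library left out in turn, genes called ran from 0 to 13 for ABX after extinction, from 1 to 28 before it and from 4 to 3057 averaged, and from 3 to 237, 0 to 1 and 14 to 2262 for stage in ABX, in non-ABX and averaged. The highest averaged stage count was without pre-extinction non-ABX replicate 3, and the highest in ABX without pre-extinction ABX replicate 4. Members called ran from 0 to 2 for stage in ABX, 0 to 1 for averaged ABX and 1 to 4 for averaged stage. List genes called ran from 0 to 3 for stage in ABX and 0 to 30 for averaged ABX. For averaged stage they ran from 0 to 2 other non-clustered protocadherins, 0 to 4 cadherins, 0 to 2 catenins, 0 to 3 cytoplasmic partners, 0 to 6 immediate early genes and 0 to 3 clustered protocadherins.

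Of the 20 genes nearest to the members, 10 were among the 10 nearest by Spearman rho and 9 by deviations from group means. Over summed exon length the level per kb was 16.0 CPM for Pcdh1, 16.9 for Pcdh7, 12.8 for Pcdh10 and 0.920 for Pcdh11x. Counting error came near the spread between libraries only for Pcdh18, with coefficients of variation of 4.73% and 5.88%; for the other members the spread among 3 or 4 libraries a group set the precision.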
